A study of Mus musculus with 2 samples.

Results

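Conventional natural killer (NK) cells carrying Ly49 receptor RNA were described in CD45-positive cells of mouse hepatocellular carcinoma. The cells were selected on raw UMIs, the unique molecular identifiers that count captured RNA molecules. A cell needed at least 500 UMIs, 250 genes and at most 10% mitochondrial UMIs. It needed at least 1 UMI of Klra4, Klra7, Klra8 or Klre1, at least 1 of Ncr1 or Klrb1c, and at least 1 of Gzma or Prf1. It could hold no UMI of Cd3d, Cd3e, Cd3g, Cd8a or Cd8b1, and at most 2 of C1qa, C1qb and C1qc. The gate held 1559 of 21998 kept cells (23456 barcodes): 689 DMSO cells and 870 STK cells.

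Both libraries came from tumours of MYC-ON mice dissected after gavage with DMSO or with STK, and the labels do not spell out STK or the construct behind MYC-ON. Live CD45-positive cells were sorted and run as 10x Genomics 5′ libraries, 1 per treatment, under a single batch label. The number, sex and age of the animals are not stated. With 1 library per treatment no test of the treatment exists, so every difference is between 2 libraries. Intervals are exact 95% intervals of counting error only, and levels are CPM, counts per 1000000 UMIs summed over gated cells. Where a pair of values has no other label, the DMSO value stands first and the STK value second.

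NK cells kill infected, stressed or transformed cells by releasing granules with perforin and granzymes, and they secrete cytokines and chemokines. In mice, inhibitory Ly49 receptors bind MHC class I molecules and restrain killing through an immunoreceptor tyrosine-based inhibitory motif (ITIM) in the cytoplasmic tail, whereas activating Ly49 receptors lack the motif and signal through adaptors such as DAP12, encoded by Tyrobp. Each NK cell expresses only some of the Ly49 genes, so that a population is a mosaic of receptor combinations.

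The 6 Ly49 genes with most UMIs lie on the minus strand of chromosome 6 between 130043731 and 130386874 (GRCm38), within 343 kb. The start of each coding sequence is shown because it separates the receptor types: the first 60 coding bases are printed from the GENCODE vM21 transcripts, in lower case, with the 18 bases that encode an ITIM in capitals. Klra1 (Ly49A), Klra3 (Ly49C), Klra7 (Ly49G2) and Klra9 (Ly49I) are inhibitory, and Klra4 (Ly49D) and Klra8 (Ly49H) are activating.
Klra1, chr6:130380603-130380662: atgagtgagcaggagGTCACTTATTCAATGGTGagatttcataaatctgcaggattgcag
Klra3, chr6:130335740-130335799: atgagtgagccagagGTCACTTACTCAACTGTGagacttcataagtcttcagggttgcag
Klra7, chr6:130231558-130231617: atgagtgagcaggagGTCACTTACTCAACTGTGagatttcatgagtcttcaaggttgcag
Klra9, chr6:130191242-130191301: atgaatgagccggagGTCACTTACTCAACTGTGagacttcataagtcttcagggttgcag
Klra4, chr6:130065243-130065302: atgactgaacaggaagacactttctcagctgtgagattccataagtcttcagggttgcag
Klra8, chr6:130128101-130128160: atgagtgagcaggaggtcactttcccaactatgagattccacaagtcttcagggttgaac
The motif was found by translation at coding bases 16 to 33 in the 4 inhibitory genes and in neither activating gene, as isoleucine, valine, leucine or serine, any residue, tyrosine, any pair of residues, and isoleucine, leucine or valine. Of 21589 protein-coding genes, 1.96% encode the pattern in their first 60 coding bases. Klra3 and Klra9 differ at 2 of these 60 bases, and Klra1 differs from Klra4 and from Klra8 at 13. Reads of such close relatives can be split or dropped in counting. No window of 90 bases in the first 500 bases of the Klra1, Klra3, Klra4, Klra7 or Klra9 transcript occurs in another Klra transcript of the annotation, while 38.4% of the Klra8 windows also occur in the pseudogene Klra14-ps, which is not among the counted genes.

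The gated cells carried the RNA of their label. Ncr1, encoding the activating receptor NKp46, was at 847 CPM (818 to 876) and 868 CPM (843 to 894). Klre1, a lectin-like receptor that pairs with Klri1 or Klri2, was at 495 and 508 CPM, and Klrb1c, encoding NK1.1, at 403 and 353 CPM. Gzma was at 6175 and 8625 CPM and Prf1, encoding perforin, at 552 and 649 CPM. All of these genes chose the cells, so their levels describe the gate. Eomes and Tbx21, the transcription factors of NK identity that the gate did not use, were at 222 and 198 CPM and at 178 and 158 CPM.

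RNA of other cells was also present. T cell markers outside the gate were Trac at 12.3 and 21.9 CPM and Trbc2 at 435 and 198 CPM; germline Trbc2 transcripts occur in NK cells, and Cd3 and Cd8 genes are at 0 by the gate. The 7 macrophage markers summed to 497 and 324 CPM, the neutrophil markers to 121 and 200 CPM and the B cell markers to 17.1 and 13.4 CPM. The 5 hepatocyte markers summed to 1165 and 725 CPM, with 1132 and 1029 in female and 1410 and 238 in male cells. The part of this RNA in the results was not tested except where values without such cells are given. Gated cells with at least 5 UMIs of B cell, myeloid, neutrophil, hepatocyte, erythroid, Siglech or Ccr9 RNA numbered 70 (10.2%) and 55 (6.32%). Scrublet, set to call about the top 8% of scores, called 8.13% and 3.79% of gated cells doublets. Of 203 barcodes found in both libraries, 2 passed the gate. Median depth was 4416 and 4385.5 UMIs per gated cell.

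The edges of the gate were populated. Just inside stood 57 and 78 cells with exactly 1 Ly49 or Klre1 UMI, whose Ncr1 level was 916 and 1033 CPM. Just outside stood 47 and 60 cells that met every other condition with none, at 1127 and 778 CPM. The cells with 1 UMI were shallower than all gated cells, with median depths of 3068 and 3026 UMIs.

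The sexes of the cells differed between the libraries. Cells were called female with an Xist UMI and no UMI of 4 Y-linked genes, and male in the reverse case. The gate held 63 female and 292 male cells in the DMSO library but 391 female and 95 male cells in the STK library. Of the others, 14 and 15 cells held both kinds of UMI, and 320 and 369 held neither. Sex and treatment therefore cannot be told apart in a pooled value, and values within female and within male cells are given beside the results. The female DMSO values rest on 393163 UMIs and the male STK values on 432464.

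Gated NK cells took a larger share of the STK library. Their share of kept cells was 6.18% (5.74 to 6.64) with DMSO and 8.02% (7.52 to 8.55) with STK, and the ratio of the shares was 1.30 (1.17 to 1.44). Among female cells the shares were 6.15% and 8.48%, a ratio of 1.38 (1.05 to 1.83). Among male cells they were 6.58% and 5.86%, a ratio of 0.891 (0.699 to 1.13). The pooled direction was thus that of the female cells, and the male interval held equality. Shares of sorted cells depend on which cells survived dissociation and the sort.

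Of the 6 main Ly49 genes, the activating Klra4 was the one higher in the STK library by at least 1.5 times, and it was higher within both sexes. Klra4 was at 217 CPM (203 to 232) and 347 CPM (330 to 363), 1.60 times higher (1.47 to 1.73). Within female cells it was 1.29 times higher (1.06 to 1.59) and within male cells 1.53 times (1.26 to 1.86). The activating Klra8, which in some mouse strains recognises a cytomegalovirus protein, went the other way, at 223 and 164 CPM, a ratio of 0.736 (0.668 to 0.810), with 0.790 in female and 0.863 in male cells. Both genes were part of the gate, which required only 1 of its 4 receptor genes. Together the activating genes gave 37.9% (36.5 to 39.4) and 39.0% (37.8 to 40.2) of activating plus inhibitory Ly49 UMIs. Within female cells they gave 33.6% (29.5 to 37.8) and 38.1% (36.5 to 39.7). Within male cells they gave 38.2% (36.1 to 40.3) and 43.2% (38.8 to 47.8).

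Among the inhibitory Ly49 genes, pooled ratios and ratios within the sexes differed. Klra7 was the most abundant, at 385 and 512 CPM, a ratio of 1.33 (1.25 to 1.42), yet it was 537 and 536 CPM in female cells and 329 and 291 CPM in male cells. Female cells thus had more Klra7 than male cells in each library, by 1.63 and 1.84 times. Klra3 was at 132 and 88.0 CPM, a ratio of 0.666, with ratios of 0.836 and 0.935 in female and male cells. It was lower in female than in male cells of both libraries. Klra1 was at 82.6 and 110.7 CPM (ratio 1.34, 0.984 in female and 1.26 in male cells). Klra9 was at 121 and 89.4 CPM, with a ratio of 0.498 in female and 1.19 in male cells.

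The same order held after each cell was thinned to 1000 UMIs, which left out 7 DMSO and 4 STK cells. Klra4 was then seen in 19.4% (16.5 to 22.5) and 26.1% (23.2 to 29.2) of gated cells, against 39.3% and 50.3% without thinning. Klra7 was seen in 27.6% and 34.8%, Klra8 in 21.8% and 17.7%, Klra3 in 11.7% and 8.08%, Klra9 in 11.3% and 8.43% and Klra1 in 7.33% and 10.3%. Hepatocyte-like cells, which should lack these receptors, gave 0 of 105 and 0 of 77 cells for each of the 6 genes, with upper bounds of 3.45% and 4.68%. Their median depths were 22500 and 24504 UMIs before thinning. In CD8 T cells the thinned shares of the 6 genes were at most 1.24%. Klra4, Klra7 and Klra8 helped to choose the gated cells but not these other cells. For them the contrast was therefore partly set by the gate.

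**Figure D1:**
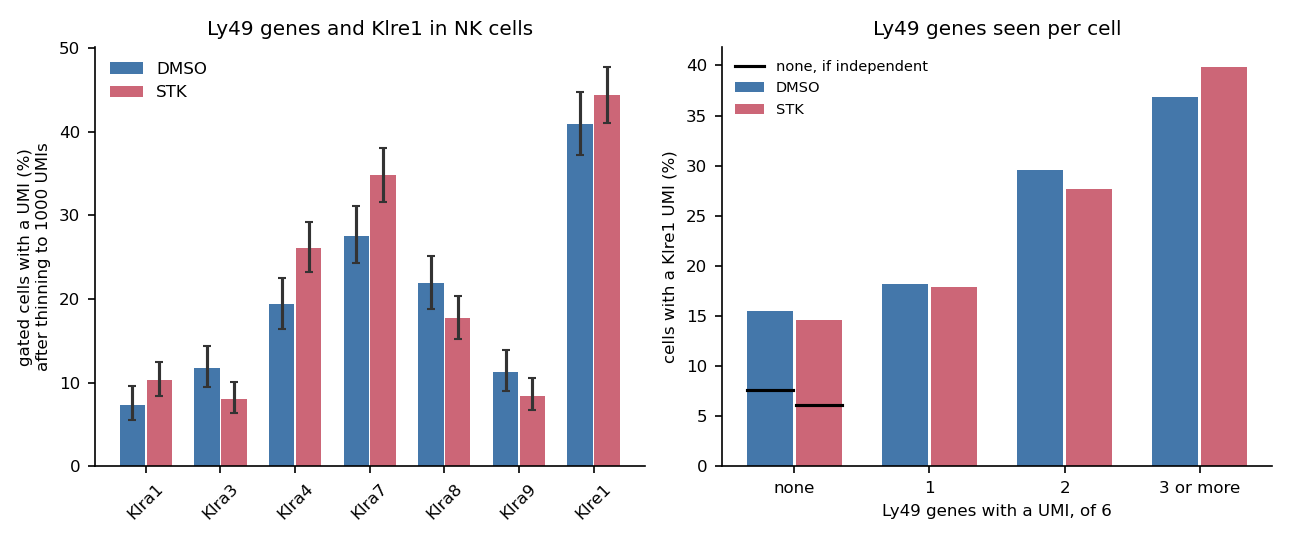
Left, share of gated NK cells (%) with a UMI of each Ly49 gene or Klre1 after thinning to 1000 UMIs, with exact 95% counting intervals. Right, share of cells with a Klre1 UMI (%) by the number of 6 Ly49 genes seen; black lines give the share with none if the genes were independent, 7.58% in the DMSO and 6.08% in the STK library.

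Receptor combinations were read in cells with a Klre1 UMI, which met the receptor condition of the gate without any Klra gene. These were 606 DMSO and 783 STK cells. None of the 6 Ly49 genes was seen in 15.5% and 14.6% of them, 1 gene in 18.2% and 17.9%, 2 in 29.5% and 27.7%, and 3 or more in 36.8% and 39.8%. If the genes were seen independently of each other, 7.58% and 6.08% of cells would hold none. In cells at or above the median depth the share with none was 15.8% and 13.7%, against 6.56% and 3.88% under independence, and in shallower cells it was 15.2% and 15.4%, against 8.68% and 9.16%. Depth varied within each of these classes, and its part in the share was not tested.

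Joint detection differed between receptor pairs. Klra4 was seen in 54.5% of DMSO cells with Klra1 and in 34.1% of those without it, and in 71.2% and 44.2% of STK cells. The joint share was 1.44 and 1.41 times the product of the single shares. The activating pair Klra4 and Klra8 stood at 1.29 and 1.32 times, and Klra4 with Klra7 at 1.25 and 1.29 times. Klra1 and Klra3 were seen together less often than the product, at 0.710 and 0.682 times, in 21 and 25 cells. Klra3 with Klra7 stood at 1.00 in each library. The libraries differed for Klra1 with Klra8, at 1.00 and 1.28 times, and for Klra1 with Klra9, at 1.19 and 1.02 times. These are descriptions over cells that share a library and whose depths differ.

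Of 22 measured activating receptors and adaptors, 2 were at least 1.5 times higher in the STK library, 1 lower and 19 between. Over all 5897 genes compared, those at 20 CPM or more as the mean of both libraries, 3.1% were at least 1.5 times higher and 3.27% at least 1.5 times lower. Lists took members from 10 UMIs over both libraries, so they can hold genes below 20 CPM that these shares leave out. In female cells alone these shares were 11.6% and 8.72%, and in male cells alone 10.5% and 16.2%. The median log2 ratio of the list was 0.00, against −0.04 over all genes. Klra4 was the abundant member of the 2; the other, Sh2d1b2, had 9 and 20 UMIs. Klrb1f, a lectin-like receptor, was lower at 204 and 135 CPM (ratio 0.665, 0.659 in female and 0.746 in male cells). Tyrobp, encoding the adaptor DAP12, was at 2403 and 2645 CPM and Fcer1g, another signalling adaptor, at 1899 and 2200 CPM. Klrk1, encoding NKG2D, was at 552 and 432 CPM, a ratio of 0.783, with 0.792 in female and 0.950 in male cells.

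Among 23 measured inhibitory receptors 16 lay between the limits, 3 were higher and 4 lower; their median log2 ratio was 0.04, with −0.16 among female and 0.28 among male cells. Of the 7 outside the limits, Klra5, Klra6, Klra10, Klra17 and Havcr2 had at most 43 UMIs in either library, and the others were Klra3 and Tigit. Tigit, a checkpoint receptor for nectin-like ligands, was at 196 CPM (182 to 210) and 308 CPM (293 to 324), 1.58 times higher (1.44 to 1.72). Male cells held 156 and 358 CPM, 2.30 times more (1.89 to 2.80), and female cells 252 and 277 CPM, with a ratio of 1.10 (0.893 to 1.37). Klrd1, encoding CD94, was 1.23 times higher, 1.15 in female and 1.65 in male cells. Klrc1, encoding the NKG2A partner of CD94, was at 360 and 321 CPM, with a ratio of 1.68 in female and 1.13 in male cells. The checkpoint genes Lag3, Havcr2 and Pdcd1 were low, at no more than 25.4 CPM in either library.

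For Gzma and Gzmb, the pooled ratio was larger than the ratio within either sex. Gzma was 1.40 times higher with STK over all gated cells (1.38 to 1.42), but it was at 8859 and 8901 CPM in female cells and at 5585 and 5811 CPM in male cells. The female ratio was 1.00 (0.970 to 1.04) and the male ratio 1.04 (0.996 to 1.09). Gzmb likewise was 1.52 times higher over all cells, at 1238 and 1882 CPM, and 1.10 and 1.03 times within female and male cells. Prf1 was at 618 and 611 CPM in female and 493 and 553 CPM in male cells. Gzmc, another granzyme gene, went the other way, with a ratio of 0.928 over all cells, 3.92 among female and 0.66 among male cells.

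**Figure D2:**
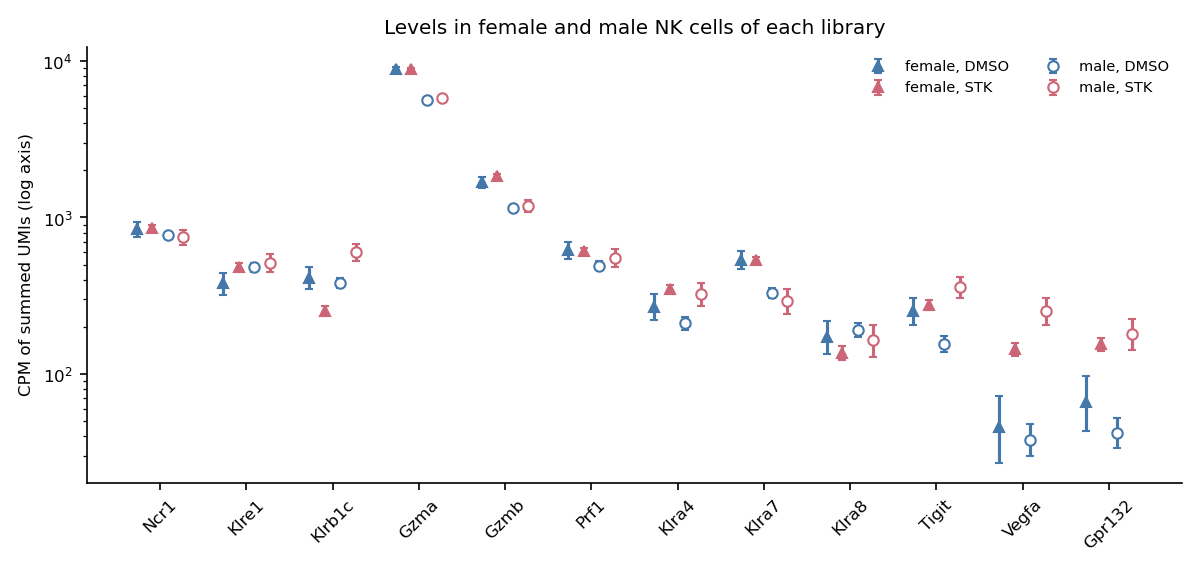
CPM of summed UMIs on a log axis for 12 genes in female (triangles) and male (circles) gated NK cells of the DMSO (blue) and STK (red) libraries, with exact 95% counting intervals. Gzma and Klra7 separate by sex and not by library, while Vegfa and Gpr132 are higher in the STK library in both sexes.

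Of 22 granule and death ligand genes, Serpinb9 and Srgn had the highest pooled ratios. Serpinb9, an inhibitor of granzyme B that protects the killer cell itself, was at 499 CPM (478 to 522) and 1102 CPM (1073 to 1132), a ratio of 2.21. It was 1.85 times higher in female and 2.46 times higher in male cells, and was seen in 79.1% of DMSO and 93.2% of STK cells. CD8 T cells showed a Serpinb9 ratio of 1.97 and all other kept cells one of 2.67. Srgn, encoding serglycin, which packs granzymes in granules, was 1.56 times higher, 1.46 in female and 1.94 in male cells. Over all cells 3 of the 22 (Gzmb, Serpinb9 and Srgn) passed 1.5 times upward and 0 downward, against 3.1% and 3.27% of all genes compared. The list's median log2 ratio was 0.02.

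Over all genes, 183 were at least 1.5 times higher in the STK library and 193 at least 1.5 times lower; scaling by the trimmed mean of M values gave 242 and 121. Of the 183 and 193, 166 and 159 had the same direction in female and male cells, and 101 (1.71% of genes compared) and 64 (1.09%) passed 1.5 times within both sexes too. CD8 T cells of the same libraries were not a separate control, since they share the library. Of the 155 higher genes with enough CD8 T cell RNA, 78 were also at least 1.5 times higher there, and of 157 lower genes 31 were also lower. Among all 5492 compared genes with enough CD8 T cell RNA, 182 were higher and 61 lower there.

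Vegfa, encoding a growth factor for blood vessels, had the highest ratio by the naming rule. It was at 41.6 CPM (35.5 to 48.4) and 190 CPM (178 to 203), 4.57 times higher (3.87 to 5.43). Female cells alone gave 3.14 times (1.96 to 5.35) and male cells alone 6.61 times (4.88 to 8.99). Vegfa UMIs lay in 108 DMSO cells (15.7%) and 436 STK cells (50.1%), with at most 6 and 10 in a cell, so no single cell carried the difference. After thinning it was seen in 5.13% (3.6 to 7.07) and 21.5% (18.8 to 24.4) of cells, against 1.9% and 3.9% of hepatocyte-like cells and 0.454% and 1.14% of CD8 T cells. Cells without a Mki67 or Top2a UMI held 51.4 and 277 CPM, and cells with one 34 and 117 CPM. In all other kept cells the ratio was 2.12, from 22.8 to 48.2 CPM.

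Gpr132, the receptor that the series links to 20(S)-hydroxycholesterol, was also among the 12 highest. It was at 51.4 CPM (44.6 to 59.0) and 173 CPM (161 to 184), 3.36 times higher (2.88 to 3.93). Female cells gave 2.34 times (1.58 to 3.63) and male cells 4.27 times (3.10 to 5.89). It was seen in 5.43% and 16.9% of thinned NK cells, 9.01% and 17.3% of thinned CD8 T cells, and 0 of 105 and 0 of 77 hepatocyte-like cells. CD8 T cells showed a ratio of 2.23 and all other kept cells a ratio of 2.39. Soat1, encoding the cholesterol-esterifying enzyme named in the series, was at 19.1 and 21.9 CPM, a ratio of 1.15 (0.848 to 1.56). Soat2, its liver and intestine form, was at 11.3 and 8.38 CPM. Of the 7 measured oxysterol and esterification genes, 1 was higher, 2 lower and 4 between; the 2 lower genes, Cyp27a1 and Nr1h3, had at most 6.05 CPM.

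The other 10 of the 12 highest genes were also higher in both sexes. Sult2b1, a sterol sulfotransferase, was 3.74 times higher, Dgat1, an enzyme of triglyceride synthesis, 3.09 times, and Kdm6b, a histone H3 lysine 27 demethylase, 3.36 times. The receptors Il21r and Il4ra were 3.35 and 3 times higher and Pdcd1lg2, encoding the checkpoint ligand PD-L2, 2.94 times. Zc3h12a, an RNase that degrades inflammatory transcripts, was 3.31 times higher, and the transcription factors Nr4a3 and Crem were 3.27 and 3.22 times higher. Rrad, a small GTPase, was 3.03 times higher. In CD8 T cells Crem, Dgat1, Nr4a3 and Kdm6b had ratios of 2.92 to 3.25, while Il21r had 1.31 and Il4ra 1.48.

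The lowest genes included some held by single cells. Jchain had 402 DMSO and 3 STK UMIs, of which 400 lay in 1 DMSO cell, and Slpi had 406 and 39, of which 375 lay in 1 DMSO cell. In each case it was a cell of 24919 UMIs. Without that cell Slpi was at 7.86 CPM and Jchain at 0.507 CPM in the DMSO library. Cxcl2, a neutrophil attractant, lay in only 20 and 30 cells. Of the remaining genes, Luc7l3, a splicing factor, was 1.95 times lower and its UMIs lay in 36.3% and 21.6% of cells.

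Apart from Jchain, the heat shock genes were furthest below equal. Hspa1a, an inducible chaperone of the HSP70 type, was at 171 CPM (158 to 184) and 5.59 CPM (3.71 to 8.07), 30.5 times lower (20.9 to 46.3), in 20.2% and 1.15% of cells. Its close paralogue Hspa1b was at 233 and 11.4 CPM, 20.5 times lower; reads of the 2 genes can be confused. Within female cells they were 7.32 and 7.95 times lower and within male cells 12.7 and 12.0 times lower. CD8 T cells showed 17.5 and 23.3 times lower, and all other kept cells 10.6 and 12.9 times. Of 15 chaperone genes 6 passed 1.5 times downward and 0 upward, against 3.27% and 3.1% of all genes compared. The median log2 ratio of the list was −0.45, with −0.15 among female and −0.90 among male cells. The constitutive chaperone gene Hsp90ab1 was at 3268 and 3341 CPM, 1.23 times higher among female cells and with a ratio of 0.731 among male cells.

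Feedback regulators and early response genes differed in direction. Zfp36, encoding tristetraprolin, which destabilises cytokine mRNAs, was at 752 CPM (725 to 779) and 270 CPM (256 to 285), 2.79 times lower, with 2.50 and 3.24 times in female and male cells. CD8 T cells showed 1.67 times lower and all other kept cells 1.68 times. The transcription factor genes Myc, Fos and Jun were 1.95, 2.31 and 1.90 times lower, Fos with 1.30 and 2.15 times in female and male cells, and Dusp1, a MAP kinase phosphatase, 1.60 times. Jun was at 267 and 190 CPM in female and at 352 and 238 CPM in male cells. Nr4a2 was instead 1.95 times higher, Fosl2 2.16 times and Egr1 2.66 times. Egr1 was at 33.1 and 121 CPM in female and at 34.1 and 50.9 CPM in male cells. Of 30 genes on this list 8 were higher, 8 lower and 14 between, against 3.1% higher and 3.27% lower among all genes compared. Txnip, encoding a thioredoxin inhibitor, was at 230 and 86.2 CPM, 2.67 times lower, and 5 of 12 glucocorticoid and quiescence genes were lower against 1 higher.

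**Figure D3:**
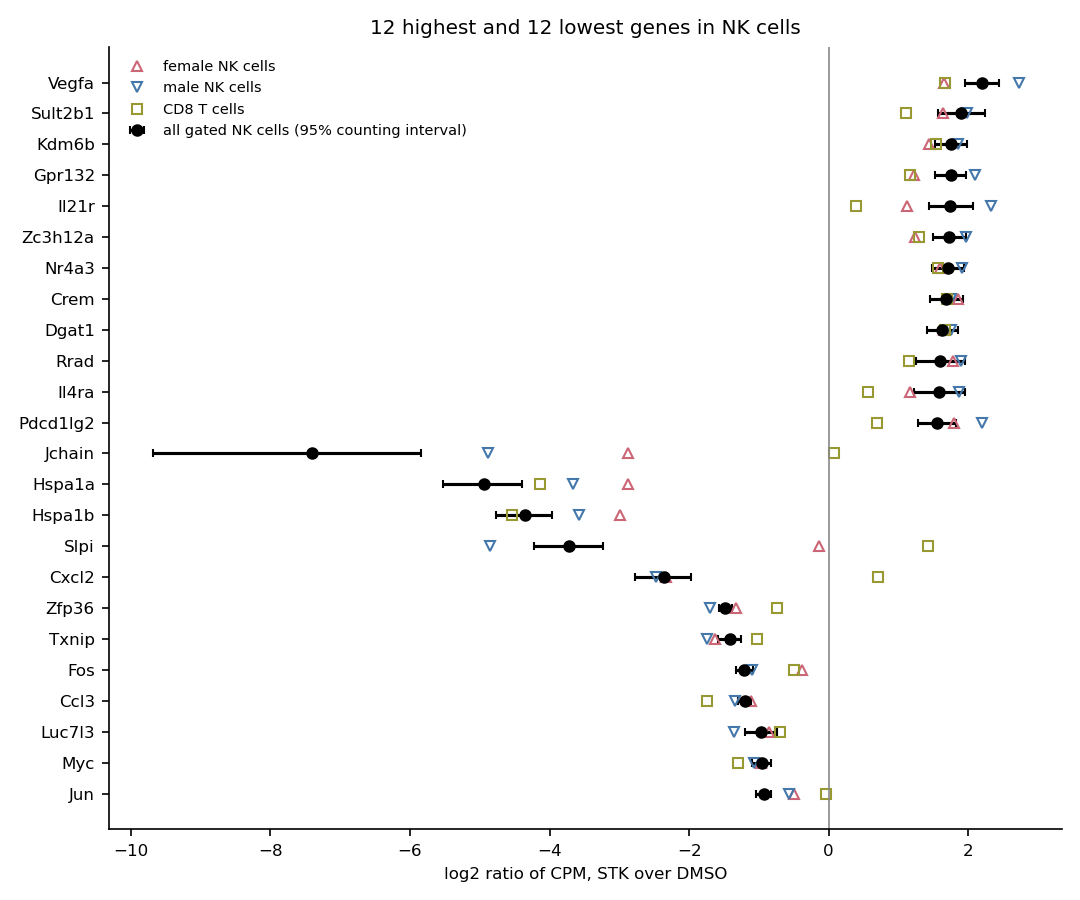
Log2 ratio of CPM, STK over DMSO, for the 12 highest and 12 lowest genes in all gated NK cells (black, exact 95% counting interval), female NK cells, male NK cells and CD8 T cells. The 12 highest genes lie above 0 in both sexes; Jchain and Slpi rest on a single DMSO cell.

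Chemokines and cytokines did not share a direction. Ccl3, a chemokine that attracts myeloid and T cells, was at 710 and 308 CPM, 2.30 times lower, and 2.17 and 2.55 times lower in female and male cells. CD8 T cells showed 3.34 times lower and all other kept cells 2.11 times. Ccl4 was 1.44 times lower, at 2437 and 1688 CPM, and 1.31 and 2.24 times lower in female and male cells. Tgfb1, encoding an immunosuppressive cytokine, was at 163 and 277 CPM, 1.71 times higher, with 2 in female and 1.85 in male cells. Ifng was at 228 and 182 CPM, and Xcl1, which attracts type 1 dendritic cells, at 1167 and 1255 CPM. Of 15 measured members 3 were higher, 2 lower and 10 between, against 3.1% higher and 3.27% lower among all genes compared.

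Among 24 measured transcription factors, 3 were higher and 4 lower, against 3.1% and 3.27% of all genes compared. Their median log2 ratio was −0.12. Irf8, a factor needed for NK responses to cytomegalovirus in mice, was at 536 CPM (514 to 559) and 1103 CPM (1074 to 1132), 2.06 times higher, and 1.88 times within male cells, where levels were 537 and 1010 CPM; female cells held 519 and 1039 CPM. It was seen in 79.4% and 94.0% of cells. CD8 T cells showed an Irf8 ratio of 1.46 and all other kept cells one of 1.21. Bhlhe40 was 1.64 times higher, 1.79 and 1.45 within the sexes, and Rora 1.74 times. Gata3, at 33.0 and 19.9 CPM, and Prdm1, at 27.7 and 14.2 CPM, were lower over all cells, Prdm1 with a ratio of 1.11 in male cells. Gata3 was at 30.5 and 18.1 CPM in female and at 31.0 and 30.1 CPM in male cells.

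Of 26 proliferation genes 0 passed 1.5 times in either direction in all cells. Their median log2 ratio was 0.18 over all, 0.55 in female and −0.83 in male cells. Cells with a Mki67 or Top2a UMI were 38.6% (35.0 to 42.4) and 36.1% (32.9 to 39.4) of gated cells, with median depths of 7084.5 and 7550 UMIs. Depth also differed by sex. Among gated cells with a Klre1 UMI, median depths were 5725 and 5922.5 UMIs in female and 5273 and 3901.5 in male cells. The part of depth in the opposite medians of the sexes was not tested. After thinning, Mki67 was seen in 12.5% and 12.4%. Of 27 measured type I interferon genes 1 was higher and 3 lower, and the list's median changed sign between pooled cells (−0.13) and female (0.19) or male cells (0.35). Of 21 glycolysis and hypoxia genes 1 was lower and 0 higher, of 22 cholesterol synthesis genes 3 were lower and 0 higher, and of 13 sterol efflux genes 1 was lower and 0 higher.

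**Figure D4:**
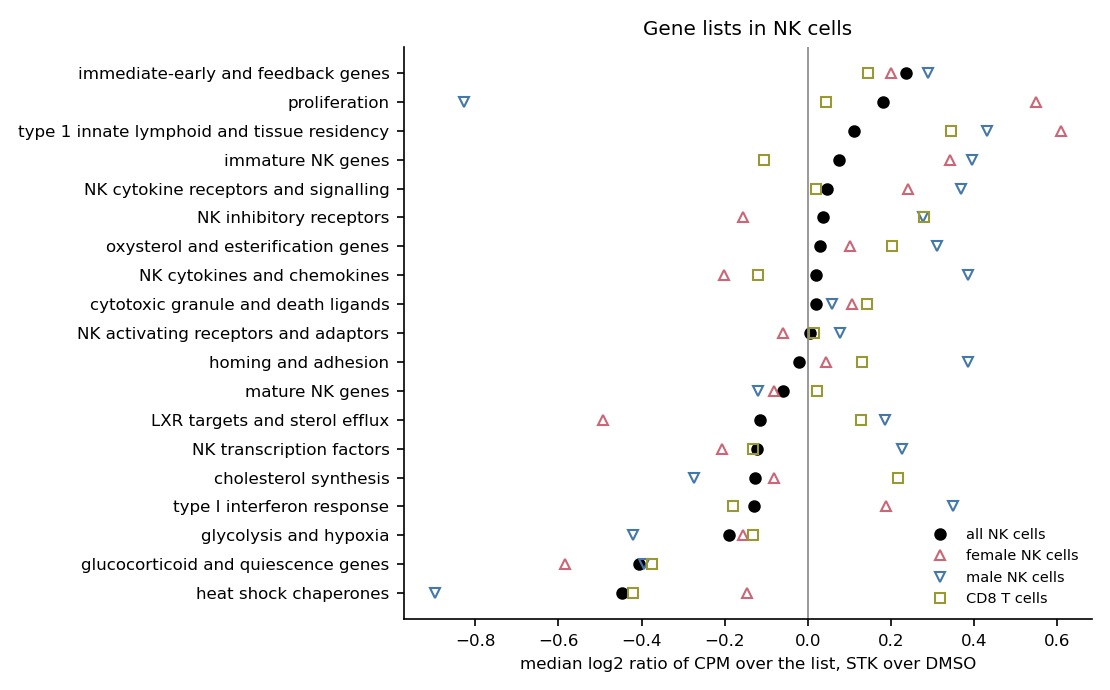
Median log2 ratio of CPM, STK over DMSO, of each gene list in all, female and male gated NK cells and in CD8 T cells. In all NK cells the heat shock and glucocorticoid lists lie lowest of the lists plotted, and the proliferation median is 0.55 in female and −0.83 in male cells.

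Cells with a Mki67 or Top2a UMI were compared with the rest in each library, where 10.5% of 5883 genes were at least 1.5 times higher and 4.22% at least 1.5 times lower in both. The highest were cell cycle genes such as Ccna2, encoding cyclin A2, at 49.8 and 41.2 times, and Aurkb, encoding a mitotic kinase, at 36.7 and 41.5 times. The lowest included Ccl5, a chemokine stored by resting NK cells, at 8381 and 10016 CPM in the rest and 3194 and 4100 CPM in the cycling cells. Eomes was 1.49 and 1.7 times lower and Tyrobp 1.7 times lower in each library. Cycling cells were deeper, so these are levels per UMI and not per cell.

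Genes of tissue residency and homing differed in part. Of 18 residency genes 7 were higher and 3 lower, against 3.1% and 3.27% of all genes compared. The list's median log2 ratio was 0.11 over all and 0.61 and 0.43 in female and male cells. Its higher members Itga1 and Krt83 were at no more than 14.9 and 18.5 CPM in female or male cells of either library. Rgs2, a regulator of G protein signalling, was at 70.8 and 115.7 CPM, 1.63 times higher, and 3.27 and 2.26 times within female and male cells. Smad7, an inhibitor of TGF-beta signalling, was 1.66 times higher, and 1.59 and 2 times within the sexes. Cd69, an early activation and retention marker, was 1.65 times lower, at 259 and 157 CPM, and 1.89 and 2.39 times lower within the sexes. Emb, encoding embigin, was the single member of 15 immature NK genes past the limit, 1.58 times higher at 229 and 362 CPM. Of 20 homing genes 3 were higher and 2 lower. Cxcr4, a receptor for retention in marrow and tissue, was 1.72 times higher, and S1pr5, a receptor for exit into blood, 2.38 times lower at 25.2 and 10.6 CPM. Of 19 mature NK genes 1 was higher and 3 lower. One of the 3, Ly6c2, was at 160 and 96.2 CPM but 3.76 and 1.62 times higher within female and male cells, the female ratio resting on 6 DMSO UMIs. Of 24 cytokine receptor and signalling genes 1 was higher and 2 lower, Il10ra at 1.87 times and Il18r1 at 1.58 times lower. Il10ra was at 120 and 57.3 CPM in female and at 110 and 83.2 CPM in male cells. Il18r1 was at 56.0 and 41.4 CPM in female and at 81.9 and 74.0 CPM in male cells.

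NK cells in mice mature from Cd27-positive to Itgam-positive (CD11b) cells, and both genes were outside the gate. Cells with only Cd27 UMIs were 29.6% (26.2 to 33.2) of DMSO and 27.2% (24.3 to 30.3) of STK cells, those with both genes 5.22% (3.69 to 7.16) and 9.08% (7.25 to 11.2), those with only Itgam 12.3% (9.97 to 15.0) and 14.5% (12.2 to 17), and the rest had neither. Neither gene was seen in most cells, so these classes are partial.

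Of 18 mature NK genes other than Itgam, 9 were at least 1.5 times higher in Itgam-only than in Cd27-only cells of both libraries, 0 were lower and 9 did neither. Of 14 immature NK genes other than Cd27, 0 were higher, 3 lower and 11 did neither. Between these subsets 2.7% of 5896 genes were at least 1.5 times higher and 2.32% at least 1.5 times lower in both libraries. Cma1, a chymase gene, was 5.14 and 20 times higher. Klrg1, a receptor of mature NK cells, was 2.17 and 2.38 times higher, Gzma 1.69 and 1.76 times and Prf1 1.43 and 1.88 times. Klra4 was 1.95 and 1.63 times higher and Klra7 1.48 and 1.51 times. Gzmc, Xcl1, Klrc1 and Cd160 were lower: Gzmc by 6.16 and 5.03 times, Xcl1 by 1.66 and 1.62 times, Klrc1 by 2.09 and 1.69 times and Cd160 by 1.54 and 1.69 times.

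The 5 genes furthest above equal in Itgam-only cells, Ccl6, Plaur, Ifitm3, Il1b and H2-Ab1, are expressed by myeloid cells, which also carry Itgam. The summed macrophage markers were at 2203 CPM in Itgam-only and 107 CPM in Cd27-only DMSO cells, and at 653 and 126 CPM in the STK library. Ccl6 was 21.0 and 9.06 times higher over all Itgam-only cells. After gated cells with at least 5 UMIs of other cell types were left out, it was at 3.08 and 1.92 CPM there, against 5.36 and 4.31 CPM in Cd27-only cells. Il1b was then at 33.9 against 3.58 CPM among DMSO cells and at 3.85 against 6.46 CPM among STK cells. The Zeb2 ratio went from 1.86 and 1.61 to 1.38 and 1.31. The Ly6c2 ratio was then 1.31 and 1.66. Xcl1 was 1.48 and 1.63 times lower and Cd160 1.47 and 1.55 times lower. Zeb2, Ly6c2, Xcl1 and Cd160 thus no longer passed 1.5 times in both libraries. The counts of mature and immature NK genes given above are for all cells of these subsets. They were not repeated without the cells left out here. The Gzma ratio was then 1.70 and 1.83, that of Klrg1 2.42 and 2.55, that of Klra4 1.95 and 1.67, and Gzmc was 5.48 and 4.73 times lower.

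**Figure D5:**
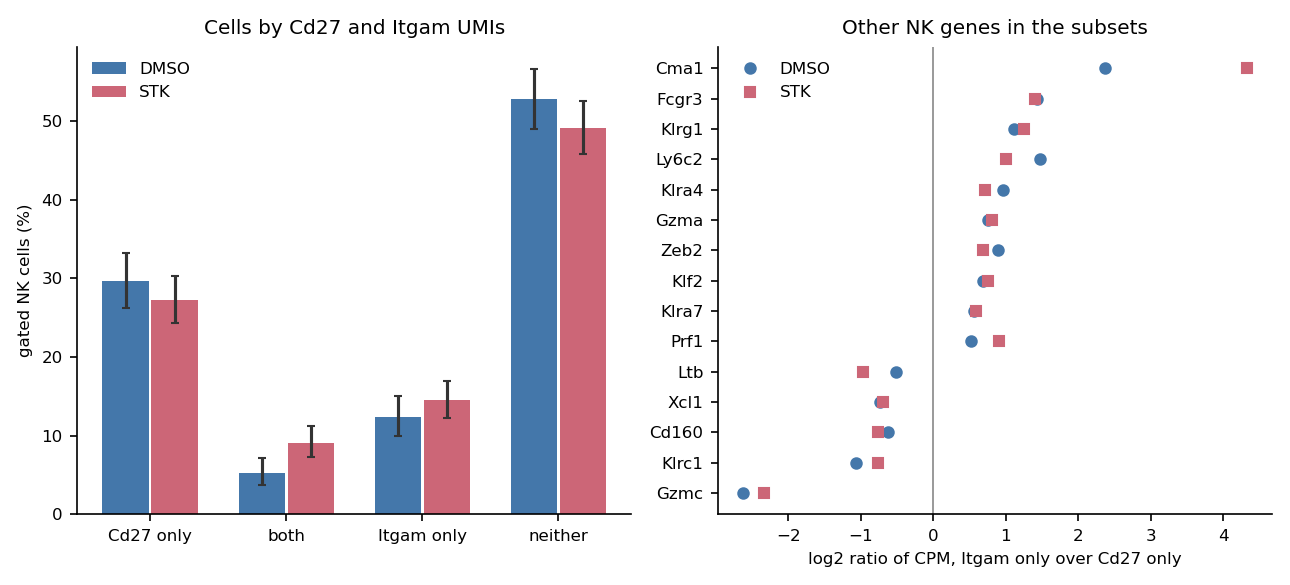
Left, share of gated NK cells (%) by UMIs of Cd27 and Itgam, with exact 95% counting intervals. Right, log2 ratio of CPM between Itgam-only and Cd27-only cells for 15 NK genes in the DMSO (circles) and STK (squares) libraries. The genes were chosen by hand, some after their values were seen. That each lies on the same side of 0 in both libraries is therefore not a result.

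Compared with the 47 and 60 cells that met the gate except for a Ly49 or Klre1 UMI, the gated cells were at least 1.5 times lower in both libraries for 11 of 18 genes of type 1 innate lymphoid cells and tissue residency, and higher for 0. Il7r, encoding the IL-7 receptor, was 6.34 and 11.4 times lower, the transcription factor gene Rora 4.83 and 5.50 times lower and Tmem176b 4.09 and 3.51 times lower. Csf2, encoding GM-CSF, was 28.5 and 12.6 times lower and Gzmc 3.46 and 3.09 times lower. Genes of myeloid and antigen-presenting cells were also among the 10 lowest by the naming rule: Il1b was 5.90 and 6.18 times lower, H2-Eb1 5.79 and 1.87 times, Cd74 4.09 and 1.97 times and Cd83 3.05 and 2.07 times. The part of such RNA in the difference was not tested. Both sets were chosen by Gzma or Prf1, and Gzma was 1.82 and 3.89 times higher in the gated cells. The 10 highest by the naming rule held lectin-like receptor genes and cell cycle genes. Klrg1 was 3.46 and 4.6 times higher, from 3 and 2 UMIs in the cells without. Cdca3 was 4.68 and 4.37 times higher, from 3 and 5 UMIs, and Cdc20 4.33 and 5.55 times, from 1 and 2 UMIs. Ube2c was 14.5 and 3.03 times higher and Birc5 2.83 and 3.24 times. Of 6035 genes, 2.68% were at least 1.5 times higher and 4.62% at least 1.5 times lower in both libraries. The cells without a Ly49 or Klre1 UMI hold few UMIs, so low genes can pass by counting error. They were also shallower, with median depths of 2712 and 3346.5 UMIs against 4416 and 4385.5, while cycling gated cells had 7084.5 and 7550. After thinning, Mki67 was seen in 13.3% and 13.8% of the cells without, against 12.5% and 12.4% of gated cells. The part of depth in the cell cycle genes was not tested.

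Against CD8 T cells of the same libraries, the 10 leading NK genes outside both gates were 7 lectin-like receptor genes, the serpin gene Serpinb9b, the granzyme gene Gzmc (95.1 and 20.7 times higher) and the metalloprotease gene Adamts14 (30.4 and 32.0 times higher). Serpinb9b was at 83.7 and 122 CPM in NK cells against 0.274 and 0 CPM in CD8 T cells. Klrb1a was 82.8 and 66.3 times higher, Klrb1b 97.1 and 63.3 times and Klri2 146 and 55.8 times. Tyrobp was 6.6 and 4.97 times higher, Fcer1g 7.71 and 7.62 times, Irf8 4 and 5.64 times and Eomes 2.68 and 3.47 times. The lowest were T cell genes, among them Cd5, Cd6, Themis and Bcl11b, with Cd5 at 0.25 and 0.60 CPM in NK cells against 219 and 211 CPM. Of 5973 genes, 4.8% were at least 1.5 times higher and 4.55% lower in both libraries. Gpr132 was at 51.4 and 173 CPM in NK cells and 73.3 and 164 CPM in CD8 T cells.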

How the data were processed

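The authors' deposited files give UMI counts, not normalized, for each gene in each barcode, written by Cell Ranger 6.0.2 per the file headers, on GRCm38 (mm10) per the submitters' processing notes. Both list 32285 genes, and the libraries hold 79322966 and 81859811 UMIs. The gate, neighbouring gates and sex calls were applied to these counts. UMIs were summed per library and converted to CPM; ratios use a floor of 3 UMIs per library, with exact conditional intervals at 95%. Genes of at least 20 CPM were compared and named from 50 CPM and 50 UMIs: the 12 highest and 12 lowest, the receptor lists, up to 6 members of each other list, and Gpr132, Soat1 and Soat2, with 10 genes each way per neighbouring gate and 5 per subset. Cd160, Cma1, Eomes, Hsp90ab1, Ifng, Rgs2, Tbx21, Tmem176b, Xcl1, Cyp27a1 and Nr1h3 fall outside this rule and were named after their values were seen. Lists counted members with at least 10 UMIs; 1 gene of the cholesterol synthesis list is not reported here. The gate, lists and members were chosen with earlier results of these data known. Hepatocyte-like cells had Alb, Apoa1 and Serpina1c at 1% or more of UMIs. On counts simulated with counting error alone for 5897 genes, 95.5% of intervals held the true STK over DMSO ratio. These draws hold no variation between cells, animals or libraries, so they cannot show how the intervals cover ratios in the real data. Analyses used Python 3.11.15, numpy 2.4.6, scipy 1.17.1, pandas 2.3.3 and Scrublet in scanpy 1.11.5. Alternatives are described in the closing section.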

Additional observations from a re-analysis of the deposited data

Results flagged for a closer look

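Genes taken by the naming rule for the 2 libraries were screened where each sex had at least 50 UMIs. In 8 of them the ratio of STK over DMSO was above 1 in one sex and below 1 in the other. Their intervals lay on opposite sides of equality. Genes outside this screen can differ likewise, such as Ccl5, with a ratio of 0.705 in female and 1.44 in male cells. The difference between the sexes was not tested, and 1 library per treatment allows no test. Klrb1c was at 0.615 in female and 1.57 in male cells, and Klri2 at 0.735 and 1.61. The cell cycle genes Cdk1, Ccnb1 and Hmgb2 were at 2.11, 2.17 and 1.61 in female cells and at 0.606, 0.409 and 0.804 in male cells. Cycling cells were deeper, and the part of depth in these ratios was not tested. Pdcd1 had no UMI in female DMSO or male STK cells, which gives a female ratio of at least 2.50 against the floor of 3 UMIs and a male ratio of at most 0.239. Lyz2, a macrophage marker, was at 1.86 and 0.369, and Ttr, a hepatocyte marker, at 1.51 and 0.223.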

How the results depend on the processing

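No paired analysis was possible because each treatment has 1 library, and no replicate could be left out for the same reason. The ratio of NK shares, 1.30, was 0.891 within male cells. Against 183 higher and 193 lower genes, female cells alone, with the minimum of 20 CPM applied anew, gave 560 and 666, male cells alone 721 and 822, thinned cells 438 and 582, the mean of female and male CPM 353 and 435, a minimum of 5 CPM 358 and 764, a minimum of 50 CPM 107 and 56, and a 2-fold limit 53 and 33. Leaving out cycling cells gave 308 lower genes, and scaling by the trimmed mean of M values (a shift of −0.09 in log2) 121 lower and 242 higher. Without called doublets 167 of the 183 and 140 of the 193 genes remained, and without cells carrying other cells' RNA 160 and 125. Among named genes with at least 50 UMIs and a pooled ratio past 1.5 times, and lists past it by their median, log2 ratios that changed sign were, in female cells alone, Ly6c2 at 1.91, Ccr7 at −0.42, Cxcr6 at 0.83, Lyz2 at 0.90 and S100a8 at −1.74, and in male cells alone Ly6c2 at 0.70, Prdm1 at 0.15, Bag3 at 0.14 and S100a8 at −1.815. Without cycling cells they were Ly6c2 at 0.31, Lyz2 at 0.23, S100a8 at −1.53, Alb at 0.15, Apoa2 at 0.27, Apoa1 at 0.79 and the hepatocyte list at 0.70. Without cells carrying other cells' RNA they were Slpi at 0.0041, Lyz2 at 0.40, Retnlg at −0.41 and S100a8 at −1.826. Without called doublets they were Csf1r at 0.0798 and Retnlg at −0.43. S100a8 was at −0.59 by mean CPM per cell, −0.0816 in thinned cells and −2.04 as the mean of the sexes, where Ly6c2 was at 0.86. Trac was at −0.23 among cells without Trac, by construction. The cause was not tested for the others. In the STK library 245 of 337 S100a8 and 127 of 153 Retnlg UMIs lay in 1 cell. The choices on other cells' RNA, the mean of the sexes and shared barcodes were added after seeing the data. With 63 female DMSO and 95 male STK cells, within-sex values of low genes are the least precise.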
